A study of Pan paniscus with 11 samples.

Results

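Fibroblast lines of 10 bonobos were compared by their expression of the patterning gene HOXC6: 3 lines in which it was at or near the detection floor and 7 in which it was expressed. They are 10 of the 11 cultures in the series. The lines were grouped by a measured value, the deposited intensity of HOXC6, taken from the probe set with the highest mean log2 intensity over all 11 arrays. A probe set is the group of short oligonucleotides on the array that together report 1 transcript. Lines under an intensity of 200 were called low and lines over 800 were called expressing. HOXC6 itself is therefore described without a test, and the comparison asks which other genes differed with it.

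The low lines were KB_7033 from a 4-year-old female, KB_7189 from a 20-year-old female and KB_7998 from a 17-year-old male. Among the expressing lines, the females were KB_4512 (9 years), KB_6884 (2 years) and KB_8024 (20 years). The males were KB_10025 (4 years), KB_5275 (2 years), KB_5828 (12 years) and KB_8025 (19 years). All 10 lines came from animals described as normal and were harvested in the same standard way. RNA of each line was hybridised to 1 array of human design. A further culture of KB_10025, taken at 50% confluence, was kept out of both groups. The labels used here name no body site for any line, so the groups could not be set beside one.

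HOX genes encode homeodomain transcription factors that lie in clusters and are switched on along the body axis in the order of their place in the cluster. Fibroblasts keep much of the HOX pattern of the site they came from when they are grown in culture, and for this reason HOX genes are widely used as markers of positional identity. HOXC6 belongs to the middle of the HOXC cluster and is known for its activity in the trunk and forelimb region. MEIS and PBX proteins bind DNA together with HOX proteins, and Polycomb proteins keep silent HOX genes closed.

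HOXC6 intensity was 100 in KB_7033, 139 in KB_7189 and 100 in KB_7998, where 100 is the floor of the deposited values. In the expressing lines it was 1127 in KB_4512, 1034 in KB_10025, 1673 in KB_5275, 1675 in KB_5828, 1194 in KB_6884, 829 in KB_8024 and 1679 in KB_8025. The values nearest to the thresholds were thus 139 in KB_7189 and 829 in KB_8024, and no line lay between them. The 50% confluence culture read 634, between the thresholds, whereas the standard culture of the same line read 1034. The group means were 113 ± 22.5 (SD, n = 3) and 1320 ± 355 (SD, n = 7).

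The grouping rests on 1 of the 3 HOXC6 probe sets. The other pair stayed near the floor in most lines and did not follow it. The first of them read 100, 176 and 151 in the low lines and 100 to 163 in the expressing lines, with a median of 100. The other read 100 to 104 in the low lines and 100 to 418 in the expressing lines, with only KB_5275 (418) over 109. The name of the grouping probe set ends in _s_at, the mark of probes that can match more than 1 transcript.

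**Figure D1:**
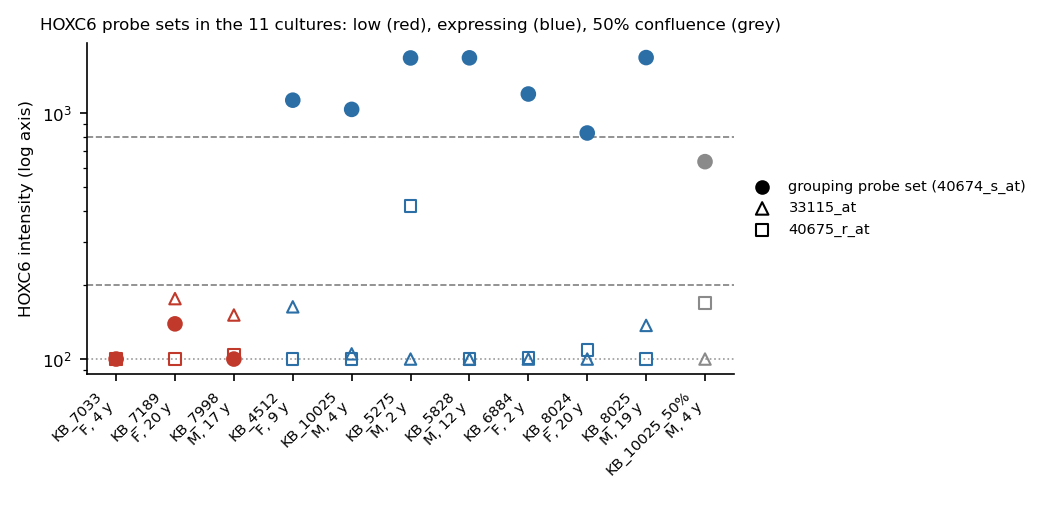
Intensity of the 3 HOXC6 probe sets (log axis) in each of the 11 cultures, with sex and age under each name; filled circles are the probe set that set the groups, open symbols the other probe sets, dashed lines the thresholds of 200 and 800 and the dotted line the floor of 100. The filled circles lie at 100 to 139 in the 3 low lines and at 829 to 1679 in the 7 expressing lines, and the open symbols do not follow this split.

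All 10 cultures carried a fibroblast profile. Of 18 genes of a fibroblast identity list on the array, 17 were tested, and these 17 were above the floor in every line. The summed intensity of the list was 108981 to 141378 in the low lines and 108814 to 163724 in the expressing lines. Here and below, list sums take in every list gene on the array, tested or not. VIM, the main intermediate filament gene of mesenchymal cells, read 24801 to 34203 in the low lines and 19809 to 41314 in the expressing lines. Some markers of other cells were higher in the low lines by estimate. In the keratinocyte and epithelial list this held for 7 of 10 tested genes, with a median log2 difference of 0.28 (0.06 over all genes), and the summed intensity of the list was 5563 to 6276 in the low and 4091 to 6886 in the expressing lines. KRT1, a keratin of differentiating epidermis, separated the groups (301, 216 and 268 against 103 to 182, log2 difference 0.79). KRT7 read 1280 to 2546 against 551 to 3228 (0.47, but -0.51 by a probe set near the floor). DSG3 read 156, 100 and 219 against 100 to 113. It exceeded the floor in only 1 expressing line and was tested only because of the low lines, so no support is read from it. The list also had 3 tested genes that were lower by estimate. The basal keratins KRT14 and KRT5 were at 100 to 109 and 100 to 187 in the low lines and at 90 to 100 and 90 to 101 in the expressing lines.

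Of 11 endothelial genes on the array, 2 were tested, and both were higher in the low lines by estimate. FLT1 read 242 to 273 against 100 to 301 (0.49, and -0.34 to 0.15 by its 5 weaker probe sets). ERG read 334 to 498 against 295 to 450 (0.18), while its other probe sets read 100 in the low lines and 90 to 126 in the expressing lines. VWF and PECAM1 read up to 101 and 141 in the low lines. This list alone among those of other cell types had sums that did not overlap, 1619 to 1684 against 1392 to 1574. Most genes in these sums were too weak to be tested, and the low lines also had more signal over the whole array, as given below. Of 7 tested melanocyte and Schwann cell markers 4 were higher (median 0.28), and of 9 blood cell markers 4 (median -0.08), with summed intensities of 1723 to 2036 against 1419 to 2047 and of 2108 to 2598 against 2008 to 2610. The pan-leukocyte gene PTPRC read up to 166 in the low lines and up to 100 in the expressing lines. In the chondrocyte, bone and adipocyte list 7 of 10 were higher (median 0.09), with sums of 3553 to 3814 against 3071 to 4497. The part of other cell types in the results was not tested. In bulk cultures, fewer cells expressing a gene and less RNA per cell cannot be told apart.

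The arrays of the 2 groups also differed in overall signal. Between 57.8% and 60.9% of probe sets were above the floor in the low lines and between 52.1% and 57.0% in the expressing lines, without overlap. The median intensity was 137 to 156 and 109 to 134. KB_7998 had the highest ACTB 3' to 5' signal ratio of the 10 lines, 2.27 against 0.853 to 1.44 in the other lines, and 18S ribosomal RNA controls of up to 313 against at most 171. Pairs of low lines differed from each other by a root mean square of 0.685 to 0.796 log2 (3 pairs), pairs of expressing lines by 0.560 to 0.761 (21 pairs) and pairs across the groups by 0.612 to 0.830 (21 pairs). Low lines were thus about as far from each other (median 0.722) as from expressing lines (median 0.736).

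Few differences between the groups passed the test across the array. With limma, which fits all probe sets and moderates their variance, 1 of 8227 tested probe sets passed a Benjamini-Hochberg adjusted p of 0.05, or 0.0122%, and it was lower in the low lines. None (0%) was higher. Before adjustment, 932 probe sets had a p under 0.05, 576 higher and 356 lower in the low lines, against 411 expected at that level with no difference. An adjusted p under 0.1 was reached by 35 probe sets, 27 higher and 8 lower. Of 5916 genes, each read from its brightest probe set, 3401 (57.5%) were higher and 2515 (42.5%) lower in the low lines by estimate, with a median log2 difference of 0.06. No gene passed by that probe set, although 688 had an unadjusted p under 0.05. The count depended on single lines. Without KB_7189 limma called 53 of the 8227 probe sets higher and 11 lower, without KB_7033 6 and 2, without KB_7998 5 and 3, and without KB_4512 3 and 1. The 3 were probe sets of PSG11 and PSG9, pregnancy-specific glycoprotein genes whose near-identical copies can share probes, so which copy gave the signal is uncertain. PSG9 read 831 to 1285 in the low lines, 1104 in KB_4512 and 100 to 281 in the other 6 expressing lines. In KB_10025 it read 265 in the standard culture and 747 at 50% confluence. The brightest PSG11 probe set read 962 and 3794 in this pair of cultures. The part of culture state in these genes was not tested. Among the genes called without KB_7189 were COMP and FKBP8, described below. Many of the 53 were weak and read 100 in KB_7189 itself, such as MAP2, PNMA2, AHR, RFX2 and CD200. Each of these exceeded the floor in only 1 expressing line. They needed the low lines to reach the 3 lines with signal that a test required, so no support is read from them.

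The probe set that passed reports SF3A2, the gene of a subunit of the splicing factor SF3a, part of the U2 small nuclear ribonucleoprotein. Its intensity was 314, 224 and 254 in the low lines. It was 735 in KB_4512, 852 in KB_10025, 1718 in KB_5275, 1065 in KB_5828, 1795 in KB_6884, 1379 in KB_8024 and 1274 in KB_8025. Every low line was thus below every expressing line, and the lowest expressing line was 2.34-fold above the highest low line. The log2 difference was -2.20 ± 0.28 (SE; limma adjusted p = 0.0109 by Benjamini-Hochberg). It passed with any 1 of the 10 lines left out (adjusted p 0.00114 to 0.0444) and did not pass with sex and age as covariates (adjusted p = 0.0842, limma). The 50% confluence culture read 628, below the lowest expressing line. Both other SF3A2 probe sets separated the groups too, by less: 508 to 794 against 813 to 2536 for the brightest (log2 difference -1.10, limma adjusted p = 0.235) and 535 to 861 against 921 to 1594 for the remaining one (-0.67, adjusted p = 0.273). All 3 probe sets of the gene were therefore lower in each low line, with very different sizes.

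**Figure D2:**
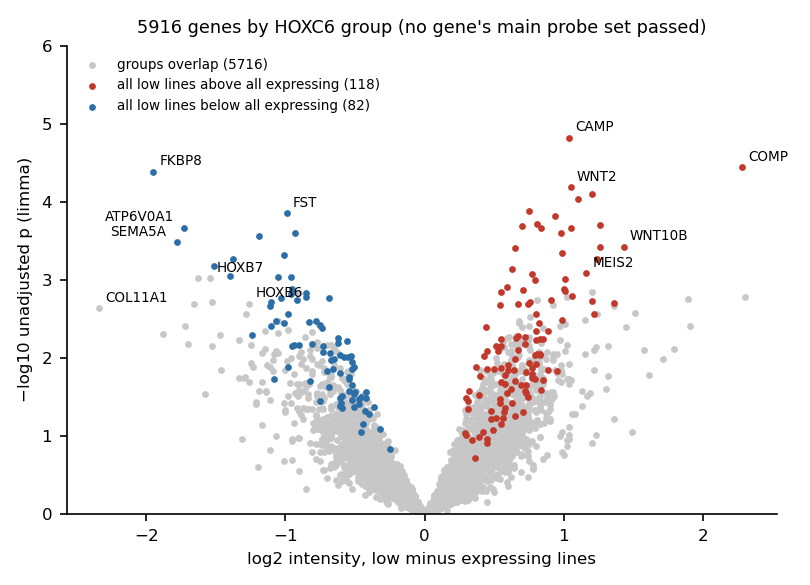
Log2 intensity difference, low minus expressing lines (x axis), against −log10 of the unadjusted limma p (y axis) for the brightest probe set of each of 5916 genes; coloured points are genes whose intensities did not overlap between the 3 low and 7 expressing lines, 118 higher (red) and 82 lower (blue). COMP lies farthest right among the separated genes and FKBP8 far left, and no gene passed the adjusted threshold by this probe set.

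A second description counted genes whose intensities did not overlap at all between the groups. All 3 low lines were above all 7 expressing lines for 118 of 5916 genes (1.99%) and below them for 82 (1.39%). The genes higher in the low lines were mostly weak. Their median group means were 282 and 157, and for 55 of the 118 every expressing line was under 200. For 14 of the 118 the expressing lines were all at the floor, so these 14 passed the filter, which asked for signal in at least 3 lines, only through the low lines and had to differ. Likewise, for 4 of the 82 the low lines were all at the floor. The lower genes were brighter, with median group means of 580 in the low and 1040 in the expressing lines, and 68 of the 82 were above the floor in all 10 lines, against 57 of the 118. The direction of this split moved with the scaling: after quantile normalization the counts were 90 higher and 100 lower.

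COMP had the largest estimated increase among these genes. It encodes cartilage oligomeric matrix protein, a matrix protein of cartilage and tendon. Its intensity was 1469, 866 and 722 in the low lines and 100 to 357 in the expressing lines, with a median of 190, and the lowest low line was 2.02-fold above the highest expressing line. The log2 difference was 2.28 ± 0.39 (SE; limma adjusted p = 0.0603). A second COMP probe set separated the groups in the same way (491 to 981 against 100 to 308), while the remaining one, near the floor, had a log2 difference of -0.13.

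WNT2 and WNT10B, which encode secreted Wnt ligands, were also higher in every low line. WNT2 read 302, 172 and 171 in the low lines and was at the floor of 100 in all 7 expressing lines, so it was at least 2.07-fold higher. It is 1 of the 14 genes that passed the filter only through the low lines, and no test is read from it. WNT10B read 444, 421 and 294 against 100 to 209, with a median of 149 (log2 difference 1.43 ± 0.31 SE, limma adjusted p = 0.0991). A weaker WNT10B probe set exceeded the floor in KB_7033 alone (139).

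Other genes above the expressing range in each low line served unlike roles. CAMP, which encodes the antimicrobial peptide precursor cathelicidin, read 174, 247 and 210 against 100 to 108. CSF2RB, the shared beta chain of several cytokine receptors, read 306, 193 and 251 against 100 to 161. Its other probe sets did not show this, at 100 to 107 in the low lines and 90 to 114 in the expressing lines. SEMA3A, a secreted axon guidance cue, read 173, 143 and 176 against 100 to 105. These 3 genes were at or near the floor in most expressing lines. Brighter ones were SYNJ2, a phosphoinositide phosphatase gene (405, 565 and 547 against 147 to 250), and PDCD10, a vascular integrity gene (743, 798 and 1029 against 364 to 536). HIVEP2, MYH2, KIF1B, ZBTB18, KYAT3, LSM6 and MYB completed the weak genes of lowest p or widest gap, with 147 to 401 in the low lines and 100 to 174 in the expressing lines over the 7 genes. The other MYB probe sets read 100 to 122 in the low lines and 90 to 164 in the expressing lines. The other ZBTB18 probe set was not above 100 in any line. None of these 12 genes passed with all lines (limma adjusted p 0.0603 to 0.110). CAMP, CSF2RB, SEMA3A, MYH2, KIF1B and MYB exceeded the floor in only 1 or 2 expressing lines. They needed the low lines to meet the filter of 3 lines, so no test is read from them.

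Among the genes lower in every low line, FST stood out by its level. It encodes follistatin, a secreted protein that binds and blocks activins. Its intensity was 6013, 5976 and 7475 in the low lines and 10135 to 15782 in the expressing lines, with a median of 12683. The lowest expressing line was 1.36-fold above the highest low line, and the log2 difference was -0.99 ± 0.19 (SE; limma adjusted p = 0.0835). FST was far above the floor in every line, unlike most genes of the opposite direction.

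FKBP8, an immunophilin-family gene of the outer mitochondrial membrane, had the largest decrease by estimate among separated genes. It read 349, 558 and 129 against 856 to 1373, with a median of 1120 (-1.95 ± 0.34 SE, limma adjusted p = 0.0603). ATP6V0A1, a subunit of the vacuolar proton pump, read 100, 255 and 174 against 375 to 868. CLCN7, the lysosomal chloride transporter gene, read 297, 443 and 280 against 591 to 1147. Neither overlapped between the groups, and their limma adjusted p values were 0.0862 and 0.0958.

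SEMA5A, a membrane-bound semaphorin gene, was at or near the floor in the low lines (100, 119 and 100) and read 235 to 741 in the expressing lines. Its log2 difference was -1.78, but it exceeded the floor in only 1 low line. It met the filter through the expressing lines, so no test is read from it. Its pattern over the lines was the reverse of that of SEMA3A, but both genes were picked for differing between the groups, so no link is read from this. A second, weaker SEMA5A probe set overlapped (-0.38). SBF1, a myotubularin-family pseudophosphatase gene (843, 645 and 567 against 1116 to 1540) and POLR2E, a subunit shared by the RNA polymerases (600, 848 and 963 against 1230 to 2450), were lower at higher intensities. A second SBF1 probe set showed no such pattern (396 to 657 against 404 to 653, log2 difference -0.07). DUSP3, LPCAT4, QPRT, SKAP2, PSKH1 and TRIM15 were lower too, at 100 to 249 in the low lines and 133 to 747 in the expressing lines. TRIM15 was at the floor in all 3 low lines, which makes it at least 1.67-fold lower there, and it passed the filter only through the expressing lines. The other probe sets of DUSP3 (-0.25 and -0.47) and PSKH1 (-0.02 and -0.11) overlapped between the groups. None of these genes passed.

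**Figure D3:**
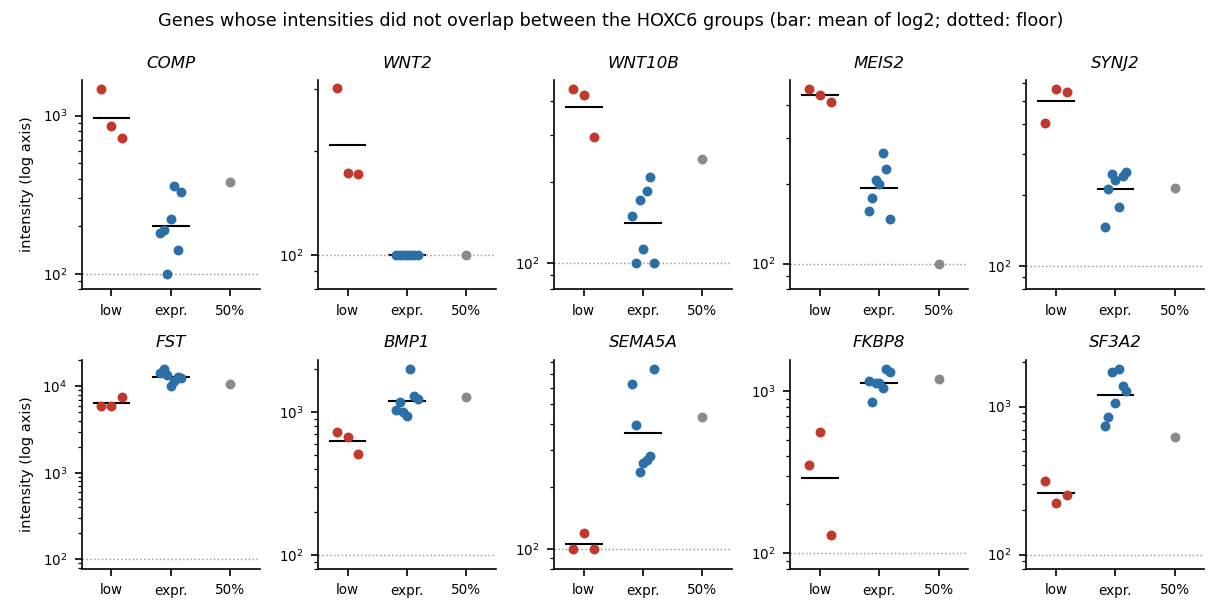
Intensity (log axis) of 10 genes whose values did not overlap between the groups, with 1 point for each of the 3 low lines (red), 7 expressing lines (blue) and the 50% confluence culture (grey); bars are means of log2 intensity and the dotted line is the floor. SF3A2 is shown by the probe set that passed; WNT2 sits on the floor in all expressing lines, whereas FST lies between 5976 and 15782 throughout.

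The HOX genes other than HOXC6 are on the array with 1 gene of the HOXA cluster, 7 of HOXB, 3 of HOXC and 6 of HOXD, and 13 of these 17 were tested. The HOXB genes pointed the same way as HOXC6. All 6 tested HOXB genes were lower in the low lines by estimate, with a median log2 difference of -0.76 against 0.06 over all genes, and 0 passed. HOXB7 read 151, 102 and 404 in the low lines and 353 to 812 in the expressing lines, with a median of 522. The groups overlapped only through KB_7998 (404) and KB_8024 (353). The log2 difference was -1.54 ± 0.37 (SE; limma adjusted p = 0.152). With each line left out it ran from -2.10 without KB_7998 (adjusted p = 0.0367), where it passed, to -1.11 without KB_7189 (adjusted p = 0.207).

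HOXB6 was 237, 197 and 220 in the low lines and 226 to 793 in the expressing lines, with a median of 538. KB_4512 (226) was the 1 expressing line inside the low range, and the other 6 read at least 487. The log2 difference was -1.26 ± 0.34 (SE; limma adjusted p = 0.178). HOXB5 was the HOX gene whose groups did not overlap: 100, 113 and 102 against 141 to 281, with a median of 163 (-0.73 ± 0.24 SE, limma adjusted p = 0.273). HOXB2 read 339, 100 and 252 against 231 to 463. HOXB3 and HOXB13 were near the floor in most lines, with log2 differences of -0.20 and -0.13, and HOXB1, not tested, was above it only in KB_7033 (202).

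The neighbours of HOXC6 in its own cluster followed it less closely. HOXC5 read 170, 415 and 141 in the low lines and 196 to 745 in the expressing lines, with a median of 382 (log2 difference -0.87 ± 0.43 SE, limma adjusted p = 0.462). KB_7189, with the highest HOXC6 value of the low lines, was also their highest in HOXC5 (415). HOXC4 read 198, 100 and 170 against 100 to 411 and was at the floor in KB_5275 and KB_6884, which both expressed HOXC6 (-0.48 ± 0.48 SE). HOXC11, farther along the cluster, read 237, 131 and 127 against 100 to 200 (0.23 ± 0.28 SE). HOXC4, HOXC5 and HOXC11 thus overlapped widely between the groups. In the bonobo gene order of the RefSeq assembly NHGRI_mPanPan1-v2.0_pri, the nearest tested genes outside the cluster were CBX5 and HNRNPA1 on the HOXC4 side and CALCOCO1 on the HOXC11 side. Their log2 differences were -0.44, -0.40 and 0.10, and all 3 overlapped between the groups.

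The tested HOXD genes were weak and had no common direction. HOXD8 read 100, 100 and 113 in the low lines and 100 to 179 in the expressing lines, 6 of which were above the floor (-0.47 ± 0.21 SE). HOXD10 had an estimate of -0.26 and HOXD13 of 0.36. HOXD4 had 0.18 by its brightest probe set and -0.32 and -0.08 by the other pair. HOXA2, HOXD1 and HOXD9 did not exceed 105 in any line and were not tested.

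**Figure D4:**
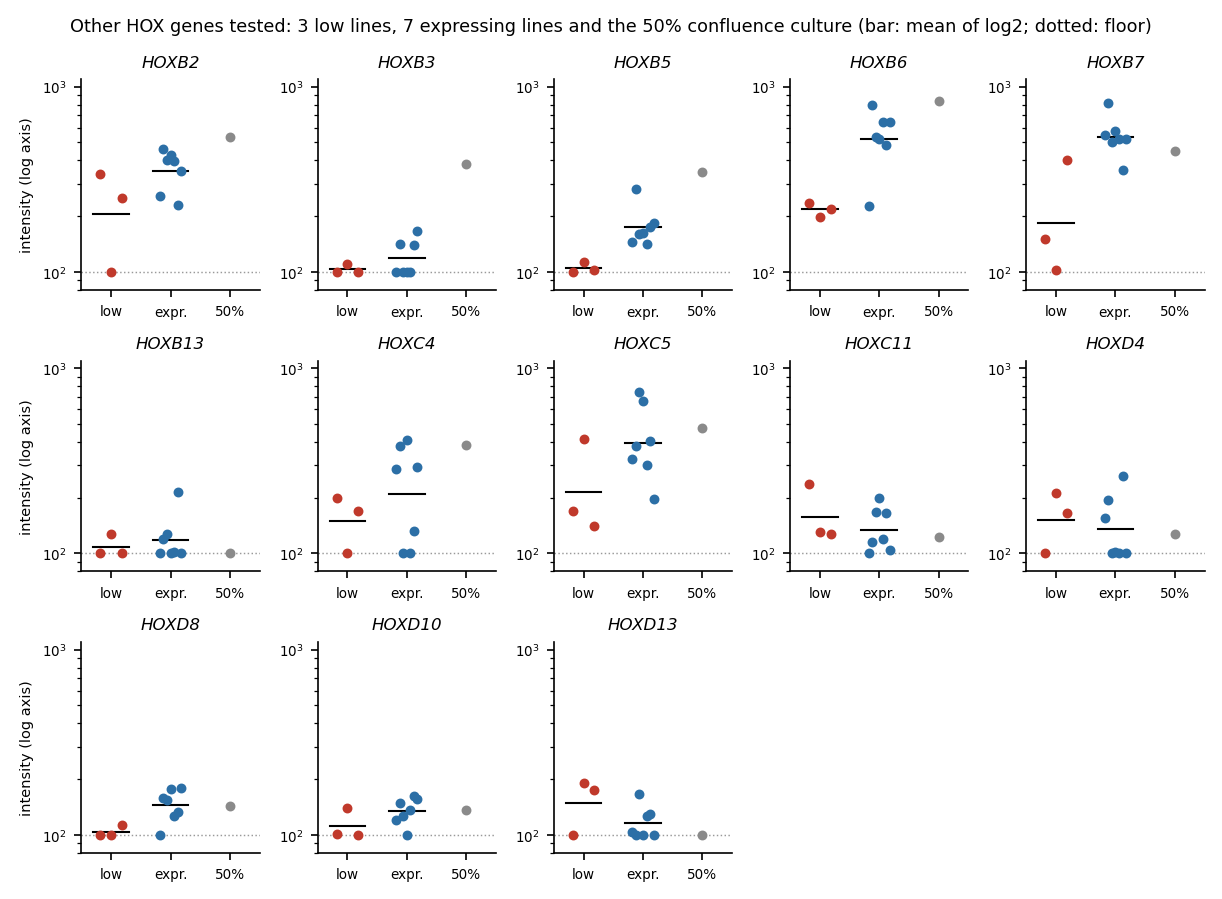
Intensity (log axis) of the 13 tested HOX genes other than HOXC6 in the 3 low lines (red), 7 expressing lines (blue) and the 50% confluence culture (grey), 1 point per culture; bars are means of log2 intensity and the dotted line is the floor. HOXB5, HOXB6 and HOXB7 lie mostly lower in the low lines, with no overlap for HOXB5. HOXC4, HOXC5, HOXC11 and the HOXD genes overlap between the groups.

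MEIS2 led the list of HOX cofactors and regulators, in the opposite direction. It encodes a homeodomain protein that binds DNA with HOX and PBX partners. Its intensity was 461, 435 and 410 in the low lines and 148 to 262 in the expressing lines, with a median of 200, and the 50% confluence culture was at the floor. The groups did not overlap, and the log2 difference was 1.16 ± 0.28 (SE; limma adjusted p = 0.149). MEIS1 read 221, 127 and 339 against 100 to 218, where only KB_6884 exceeded 120 (0.86 ± 0.31 SE). Of 12 tested genes of this list, 9 were higher and 3 lower by estimate, beside 57.5% higher over all genes, with a median of 0.23 and 0 passing. The Polycomb genes EZH2 (0.79), SUZ12 (0.51) and PCGF2 (0.41) were among the higher ones while the Polycomb genes RING1 (-0.30) and EED (0.04) were lower or near 0. CDX2, an activator of HOX genes, was lower (-0.65). Each of these 6 overlapped between the groups.

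Transcription factors of other body regions showed no common direction. Of 13 tested limb and body wall factors, 8 were higher and 5 lower in the low lines by estimate, with a median of 0.29 that was 0.01 without KB_7998. GLI3, a mediator of hedgehog signals, read 208, 344 and 737 against 169 to 274 (0.83 ± 0.36 SE), so that its estimate was carried by KB_7189 and KB_7998. TBX5, the forelimb T-box gene, read 258, 220 and 332 against 100 to 291 (0.73). SHOX2, a limb homeobox gene, went the other way with 100, 100 and 126 against 104 to 310 (-0.85). PRRX1 (0.58) and TBX2 (-0.57) also overlapped. PITX1, the hindlimb factor, was at the floor in all 10 lines.

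Of 15 tested cranial and neural crest factors, 9 were higher and 6 lower by estimate, with a median of 0.09. EYA1, a transcriptional coactivator of craniofacial development, was the 1 gene among them that separated the groups. It read 182, 135 and 126 in the low lines and was not above the floor in any expressing line, so it was at least 1.46-fold higher. It is another of the genes that passed the filter only through the low lines, which makes its separation no support for the list. MSX1 read 1157, 920 and 2173 against 413 to 1511 (0.63), and DLX2 read 640, 528 and 100 against 249 to 790 (-0.65, but 0.40 by its other probe set). TFAP2A, a neural crest factor, varied widely in both groups, from 100 to 642 in the low lines and from 100 to 1563 in the expressing lines. Of 9 visceral and lateral plate factors, 6 were higher and 3 lower, with a median of 0.20. The largest was TCF21, with 233, 313 and 100 against 100 to 206 (0.63). No gene of these lists passed.

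Among signalling genes, the Wnt list had 14 of 18 tested genes higher in the low lines by estimate, beside 57.5% higher over all genes. Its median was 0.23, beside 0.06 over all genes, and 0 passed. Of the 18, 3 were separated higher and 1 lower, beside 1.99% and 1.39% over all genes. WNT2, 1 of the 3, passed the filter only through the low lines, so its separation is no support for the list. Besides WNT2 and WNT10B, the receptor gene FZD7 was above the expressing range in each low line, by a narrow gap (736, 398 and 508 against 264 to 389). The ligand gene WNT2B was the 1 gene below it, at the floor in the low lines and 107 to 174 in the expressing lines, so it passed the filter only through the expressing lines. WNT5A, a non-canonical ligand, read 210, 236 and 973 against 419 to 2621 (-1.21), where KB_7998 was the low line inside the expressing range. TCF7L2, a transcription factor of the pathway, read 582, 286 and 570 against 100 to 611 (1.06). FZD7 and WNT2B were named after their values were seen, as were PSG9, PSG11, EFNA3, COL6A2, COL5A2, ALDH1A3 and KIF2C.

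The list of the TGF-beta and BMP pathway had 18 of 29 tested genes higher and 11 lower by estimate, with a median of 0.12. Its separated genes were FST, BMP1 and GDF15, 3 lower and 0 higher of 29, beside 1.39% lower and 1.99% higher over all genes. BMP1, a protease that trims procollagens, read 723, 671 and 508 against 935 to 2007, with a median of 1175 (-0.95 ± 0.24 SE, limma adjusted p = 0.178). A second BMP1 probe set of similar intensity overlapped widely (855, 784 and 320 against 468 to 1137, log2 difference -0.29). GDF15, a stress-induced cytokine, read 601, 395 and 501 against 656 to 1667 (-0.98 ± 0.27 SE, limma adjusted p = 0.210). For TGFB1 the probe sets opposed each other: the brightest read 2144, 1233 and 790 against 1357 to 4855 (-1.28), whereas another read 424 to 643 against 100 to 409 (1.05). No direction is given for TGFB1 for this reason.

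In the list of fibroblast growth factor and Eph genes, 17 of 22 were higher by estimate, beside 57.5% over all genes, with a median of 0.25. EFNA3, an ephrin ligand gene, separated the groups by a narrow gap (841, 993 and 727 against 382 to 692), while its other probe set overlapped (0.09). FGF9 read 319 in KB_7033, 100 in KB_7189 and 789 in KB_7998, and 100 to 120 in the expressing lines, so that its estimate of 1.51 came from 2 of the 3 low lines. It was 2.29 without KB_7189 and 0.80 without KB_7998. Of the expressing lines only KB_4512 (120) exceeded the floor, so FGF9 needed the low lines to meet the filter and no test is read from it. The retinoid list had 5 genes higher and 6 lower, with a median of -0.11. The retinaldehyde dehydrogenase gene ALDH1A3 was its 1 separated gene (129, 106 and 143, against 100 in all expressing lines), and it too passed the filter only through the low lines.

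Matrix genes were divided about equally by estimate: 22 of 45 were higher and 23 lower in the low lines, with a median of -0.10. Apart from COMP, COL5A2 was higher in every low line (3777, 3125 and 3079 against 1702 to 3005) and COL6A2 was lower (9412, 15546 and 12990 against 16874 to 28122). Another COL6A2 probe set overlapped (128 to 2039 against 1442 to 3237). COL11A1, a fibril-forming collagen gene, read 517, 268 and 100 against 507 to 4289, with a median of 1047 (-2.34 ± 0.64 SE, limma adjusted p = 0.187). The low lines overlapped the expressing range only by KB_7033. COL1A1 read 14390, 5281 and 2122 against 8718 to 17516 (-1.33), and COL3A1 read 3036, 1230 and 1701 against 2369 to 6804 (-1.05). KB_7033 was within the expressing range for both of these collagens, and KB_7189 and KB_7998 were below it. The COL1A1 estimate depended on single lines: it was -2.03 without KB_7033, which passed (limma adjusted p = 0.0451), and -0.65 without KB_7998 (adjusted p = 0.671). Of 24 adhesion and guidance genes, 15 were higher and 9 lower by estimate, a split near the 57.5% higher over all genes. SEMA3A and SEMA5A were separated, 1 in each direction, beside 1.99% and 1.39% over all genes. SEMA3A needed the low lines to meet the filter and SEMA5A the expressing lines, so neither is support for the list. CDH2, the N-cadherin gene, read 4070, 3419 and 946 against 482 to 2506 (0.99).

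**Figure D5:**
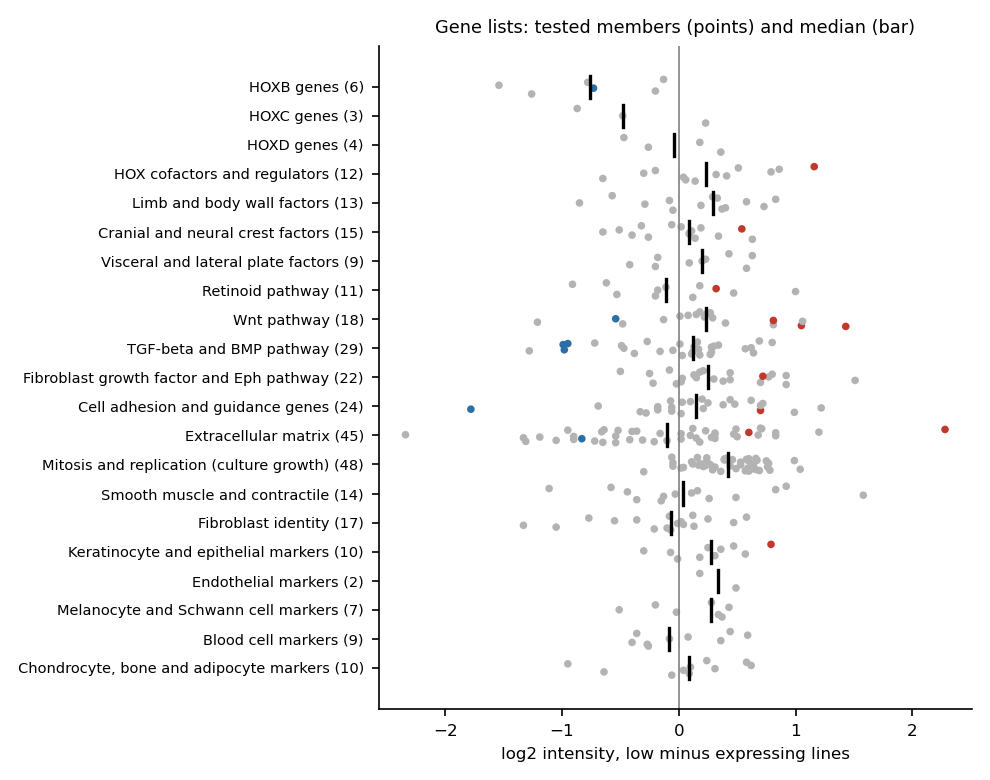
Log2 intensity difference, low minus expressing lines (x axis), for the tested genes of 21 lists, 1 point per gene with the number tested in brackets; bars are list medians, red and blue points are genes higher or lower without overlap between groups, and grey points are genes that overlapped. The HOXB list has the lowest median (-0.76) and the mitosis and replication list the highest (0.42).

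Most genes of cell division were higher in the low lines by estimate. In the mitosis and replication list 44 of 48 genes were higher in the low lines by estimate, beside 57.5% over all genes. The list median was 0.42, and 0 passed or separated the groups. The summed intensity was 27826 to 45306 in the low lines and 9994 to 44663 in the expressing lines. With each line left out in turn the list median ran from 0.13 to 0.61. CDK1, the main mitotic kinase gene, read 1173, 394 and 716 against 100 to 921 (1.04, but -0.07 by a probe set near the floor). KIF2C, a mitotic kinesin gene, read 485, 261 and 397 against 100 to 437. KB_4512 had the lowest sum of the 10 lines (9994), and KB_7033 had the highest (45306). The part of culture growth in the other differences was not tested. Smooth muscle genes had no common direction, 7 higher and 7 lower. CNN1, a contractile regulator, read 1033, 470 and 406 against 100 to 415 (1.58 ± 0.52 SE, limma adjusted p = 0.273). In KB_10025 it read 362 in the standard culture and 1154 at 50% confluence, above every low line.

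Likeness to HOXC6 was measured by Pearson's r of log2 intensity over the 10 lines, which all belong to 1 or other of the groups, so the coefficient mostly restates the split and is given as a description. The 5 genes of highest r were PLEC (0.92), ATP6V0A1 (0.91), SBF1 (0.89), CLCN7 (0.88) and FKBP8 (0.88). PLEC, the gene of the cytoskeletal linker plectin, read 3725, 4408 and 4249 in the low lines and 5190 to 7320 in the expressing lines. The 5 of lowest r were SEMA3A (-0.97), MYH2 (-0.96), DNAJB4 (-0.94), MYB (-0.94) and KIF1B (-0.93). DNAJB4 is 1 of the 14 genes at the floor in every expressing line that had to differ. SEMA3A, MYH2, MYB and KIF1B exceeded the floor in only 1 or 2 expressing lines and needed the low lines to meet the filter. No support is read from these negative coefficients. The first 5 were above the floor in nearly every line, and the last 5 were at or near it in most expressing lines.

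The 50% confluence culture, from an expressing line, was read against both groups. Of the 118 genes higher in the low lines, it lay on the side of the expressing lines for 80, between the groups for 12 and on the side of the low lines for 26. Among the 26 were CAMP (177) and CSF2RB (206). Of the 82 lower genes it lay on the side of the expressing lines for 65, between for 7 and on the side of the low lines for 10. For HOXB6 (834) and HOXB5 (345) it was above every standard line. It thus lay with the expressing lines in most but not all separated genes, at 1 array of the same line as KB_10025. The separated genes were picked with KB_10025 on the expressing side in each, so this likeness was partly set by the selection and is no support for the groups.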

How the data were processed

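Gene expression was measured in 11 bonobo fibroblast cultures, 1 array each, of 12625 probe sets designed to human sequence; how well each matches bonobo transcripts was not tested. The values are array intensities as deposited by the authors; their summarisation and scaling are not given in the sources used here. Trimmed means (2% cut at each end) of the 11 arrays lay between 405 and 418, so the deposited scaling was kept. The lowest deposited value was 100 in 9 arrays and 90 in 2, and 100 is also the 40th percentile of all values. Intensities under 100 were set to this floor before log2. Depth in the sense of read counts does not apply; the number of lines limits the precision.

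Gene names came from a 2016 platform annotation. Of the probe sets, 67 were controls, 10943 had 1 symbol, 545 several and 1070 none, and probe sets with several or none were given no name. Of 8229 symbols, 7681 matched the bonobo RefSeq table and 1 was updated. A gene is read from its probe set of highest mean log2 over the 11 arrays.

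A probe set was tested where 3 or more of the 10 lines exceeded the floor, which left 8227 without the 3 of HOXC6. The test was limma 3.58.1 in R 4.3.3 (lmFit and eBayes with intensity trend), low minus expressing, two-sided, with Benjamini-Hochberg adjustment over all tested probe sets and no covariates. The script was tested on simulated data. Because the groups were set from a measured gene, p-values describe an association with it. Gene lists (22 lists, 543 genes) are described by counts and medians without a test.

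Genes were named by rule: those past the threshold (at most 15 a direction) and, since fewer than 10 passed, the 10 of lowest p each way. To these were added every HOX gene, the 6 largest of each regional list and 4 of each other list described, the 5 most and 5 least like HOXC6, and up to 10 separated genes of widest gap in each direction. The members, lists and rules were chosen with earlier results of these data known. Alternatives covered scaling, floor, filter, covariates, array weights, a slope on HOXC6 in place of groups, and each line left out. A filter asking for signal in all 10 lines was added after seeing the data.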

Additional observations from a re-analysis of the deposited data

Results flagged for a closer look

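In the 7 expressing lines, 12 of 81 sets of values held 1 line far from the other 6 by Dixon's ratio. With the other 6 lines all at the floor, any value above it gives a ratio of 1. The count is therefore not set against a chance rate. In 7 of the 12 the other lines read 100 to 102, at or next to the floor, and the line apart was weak. These were CAMP in KB_5275 (108), CSF2RB in KB_5828 (161), MYH2 in KB_5828 (107), SEMA3A in KB_6884 (105), KIF1B in KB_10025 (147), FGF9 in KB_4512 (120) and DSG3 in KB_10025 (113). The other lines were also near the floor for KYAT3, which read 174 in KB_10025 against 100 to 116. The same held for HOXB13, 215 in KB_8024 against 100 to 127, and MEIS1, 218 in KB_6884 against 100 to 120.

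For 2 HOX genes the line apart was well above the floor. HOXB6 read 226 in KB_4512 against 487 to 793 in the other expressing lines, which placed KB_4512 within the low range of 197 to 237 although its HOXC6 intensity was 1127. HOXB5 read 281 in KB_10025 against 141 to 184, and 345 in the 50% confluence culture of the same line. What set these lines apart was not tested.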

How the results depend on the processing

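With 3 lines against 7, single lines decided much, and the causes were not tested. The SF3A2 probe set was called after quantile normalization, after median centring and with each line left out, but not with sex and age as covariates, which gave 0 calls. More calls came without a filter (10 higher) and with the floor at the 60th percentile (9 higher, 3 lower). With each line left out, 0 to 53 of 8227 probe sets were called higher and 1 to 11 lower, most without KB_7189. Separated genes then numbered 132 to 453 higher and 92 to 237 lower. Leaving a line out can only keep or raise these counts, so the rise itself is no result. They were 72 higher with the floor at the 60th percentile and 57 with signal required in all 10 lines. The share of separated genes that were higher was 59.0% as reported, 47.4% after quantile normalization, 53.8% after median centring, 50.0% with the higher floor and 45.6% with signal in all lines.

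List medians moved as follows. With signal in all 10 lines only 2 HOXB genes (HOXB6 and HOXB7) and 1 HOXC gene (HOXC5) remained, at -1.40 and -0.87. These values describe those genes rather than their lists. Under the same filter the medians were 0.37 for 8 cofactors, 0.27 for 4 cranial factors, -0.03 for 18 TGF-beta and BMP genes and 0.23 for 12 adhesion genes. After quantile normalization they were 0.10 for cofactors, -0.05 for cranial factors, 0.12 for fibroblast growth factor and Eph genes and -0.26 for blood cell markers. With sex and age as covariates they were 0.35 for fibroblast growth factor and Eph genes and 0.20 for adhesion genes. With each line left out, medians ran from 0.14 to 0.37 for cofactors, 0.01 to 0.38 for limb factors, -0.04 to 0.23 for cranial factors, -0.02 to 0.24 for visceral factors, -0.18 to 0.10 for the retinoid list, -0.02 to 0.13 for TGF-beta and BMP genes, 0.12 to 0.23 for adhesion genes and -0.17 to 0.21 for blood cell markers. The HOXB median ran from -0.92 to -0.53 and stayed below 0.

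Of the genes named, these changed sign. By another probe set they were COMP (-0.13), HOXD4 (-0.32 and -0.08), DLX2 (0.40), TGFB1 (1.05), ELN (0.70), CDK1 (-0.07), KRT7 (-0.51) and FLT1 (-0.34, -0.31, -0.25 and -0.02). With 1 line left out, values ran from -0.06 to 0.39 for HOXC11, -0.25 to 0.01 for HOXB13, -0.07 to 0.48 for HOXD4, -0.97 to 0.13 for TBX2 and -1.14 to 0.20 for DLX2. With sex and age HOXD4 was at -0.04. No paired analysis was possible because the labels give no replicate numbers that pair the lines. Values at the floor have no order, so differences of the weakest genes are limited by it.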
